A study of Mus musculus with 16 samples.

Results

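The genes described here are the integrins, talins, vinculin, cadherins and guidance receptors and ligands of the mouse. They were taken by symbol: every numbered integrin alpha and beta chain, plexin, semaphorin, slit, robo and cadherin in RefSeq, plus Tln1, Tln2, Vcl, Dscam and Mrc2. That rule names 83 genes, of which 30 had at least 1 THOC5 peak in any list, among 4051 genes with a peak in all. Together they carried 201 of 28998 peaks. The peaks fell into 97 of the 12362 places of the series, a place being a stretch covered by overlapping peaks of any lists.

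The peaks come from RNA immunoprecipitation sequencing (RIP-seq) with an antibody to THOC5 in primary mouse vascular smooth muscle cells. In this assay RNA that comes down with a protein is sequenced, and a peak is a stretch where a caller found an excess of reads. The samples are 2 THOC5 immunoprecipitates of each of 4 conditions. In THOC5 OE, cells with the genotype labelled as THOC5 overexpression were in osteogenic medium. In GFP OE, cells overexpressing GFP, with the genotype labelled WT, were in the same medium. In Pi, WT cells without an overexpressed gene were in osteogenic medium, and in Ctrl, WT cells were in growth medium. The design text gives the question as how THOC5 binds the transcriptome with and without phosphate (Pi), a treatment that drives these cells towards a bone-like state. The labels do not say how the genes were overexpressed, nor whether the 2 replicates came from separate animals or cultures, so a spread between replicates may be technical. The 8 input samples were not analysed here, and the sources used do not say whether the authors' peak calling used them. A peak is thus not shown to be corrected for how much of a transcript the cells held. A gene without a peak is not shown to be unbound. In bulk samples, fewer cells of a type and less RNA per cell cannot be told apart.

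THOC5 belongs to the THO complex, which couples transcription to the packaging and export of messenger RNA. Integrins are pairs of an alpha and a beta chain that grip the matrix outside the cell. Talin binds their tails and, with vinculin, ties them to actin at focal adhesions. Classical cadherins join neighbouring cells. Slits are secreted ligands of robo receptors, and semaphorins are ligands of plexins. First known from growing axons, both pairs also guide migrating cells in vessels. In smooth muscle, integrins, talin, vinculin and N-cadherin carry contractile force between cell and matrix and from cell to cell.

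Slit2, Slit3 and Tln2 also host microRNAs in their introns, and the nearest-gene column of the deposited annotation names those microRNAs, not the host, for many of the peaks. Their mature RefSeq sequences (GRCm38.p6) are shown because such peaks could otherwise be read as microRNA binding. Capitals mark the seed, bases 2 to 8.
miR-218-5p, the same from Mir218-1 in Slit2 and Mir218-2 in Slit3: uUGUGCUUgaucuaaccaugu
miR-218-1-3p, in Slit2: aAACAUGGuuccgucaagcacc
miR-218-2-3p, in Slit3: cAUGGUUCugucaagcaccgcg
miR-190a-5p, in Tln2: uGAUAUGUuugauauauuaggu
miR-190a-3p, in Tln2: aCUAUAUAucaagcauauuccu
The 2 copies of miR-218 share their 5p sequence and seed, while their 3p sequences differ in the seed. No peak overlapped any of these hairpins. The nearest Slit2 peak lay 12673 bp from Mir218-1, the nearest Slit3 peak 34270 bp from Mir218-2 and the nearest Tln2 peak 15548 bp from Mir190a. The nearest-gene column named the microRNA for 4 of 13 Slit2 peaks, 5 of 5 Slit3 peaks and 57 of 57 Tln2 peaks.

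The 8 lists differ in length and in how far down they reach, and this touches every count below. THOC5 OE lists had 4618 and 4240 peaks, GFP OE lists 3711 and 2572, Pi lists 2666 and 3793, and Ctrl lists 2603 and 4795. The lowest score listed was 6.72 and 6.31 for THOC5 OE, 10.2 and 12.6 for GFP OE, 20.5 and 14.9 for Pi, and 29 and 15.9 for Ctrl. The sources used here do not give the scale of the authors' score, so peaks are placed by percentile, the rank of the score within its own list (100 is best), and ranks in lists of different length show no change by themselves. Thoc5 itself had 1 peak in Ctrl 2 and none in the other 7 lists, THOC5 OE included; a peak list does not measure the level of the overexpressed gene. Of 10 smooth muscle markers, 5 had a peak (Acta2, Tagln, Mylk, Smtn and Lmod1), while Myh11 and Cnn1 were among those with none. Of 8 endothelial markers, Cdh5 among them, and 8 neuron markers, 0 had a peak, and of 8 leukocyte markers 1 had a peak, Csf1r in THOC5 OE 2.

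Adhesion and guidance genes took 0.377% to 0.873% of the peaks of a list. The share was 0.866% and 0.873% in the THOC5 OE lists, 0.377% and 0.583% in GFP OE, 0.488% and 0.791% in Pi, and 0.615% and 0.751% in Ctrl. The 2 THOC5 OE lists were the highest and GFP OE 1 the lowest. Exact binomial (Clopper-Pearson) 95% intervals, which cover counting error only, ran from 0.620% to 1.18% in THOC5 OE 1 and from 0.206% to 0.632% in GFP OE 1. The means were 0.869% ± 0.00457 in THOC5 OE, 0.480% ± 0.146 in GFP OE, 0.639% ± 0.214 in Pi and 0.683% ± 0.0962 in Ctrl (SD, n = 2 each), and the ranges of Pi and Ctrl overlapped. With 2 lists against 2, an exact permutation test cannot give a p below 0.333. Tln2 alone gave 57 of the 201 peaks. Without it the share was 0.622% ± 0.0215 in THOC5 OE and 0.381% ± 0.120 in GFP OE (SD, n = 2 each). By list it was then 0.338% and 0.527% in Pi, and 0.499% and 0.501% in Ctrl. Of the 28 and 27 peaks left in the THOC5 OE lists, 6 and 5 were on Dscam. No other list held a Dscam peak. In each THOC5 OE list, 4 of the Dscam peaks scored below the lowest score listed in GFP OE 1. The share without both genes was not computed, so an excess in THOC5 OE beyond Tln2 and Dscam is not shown.

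**Figure D1:**
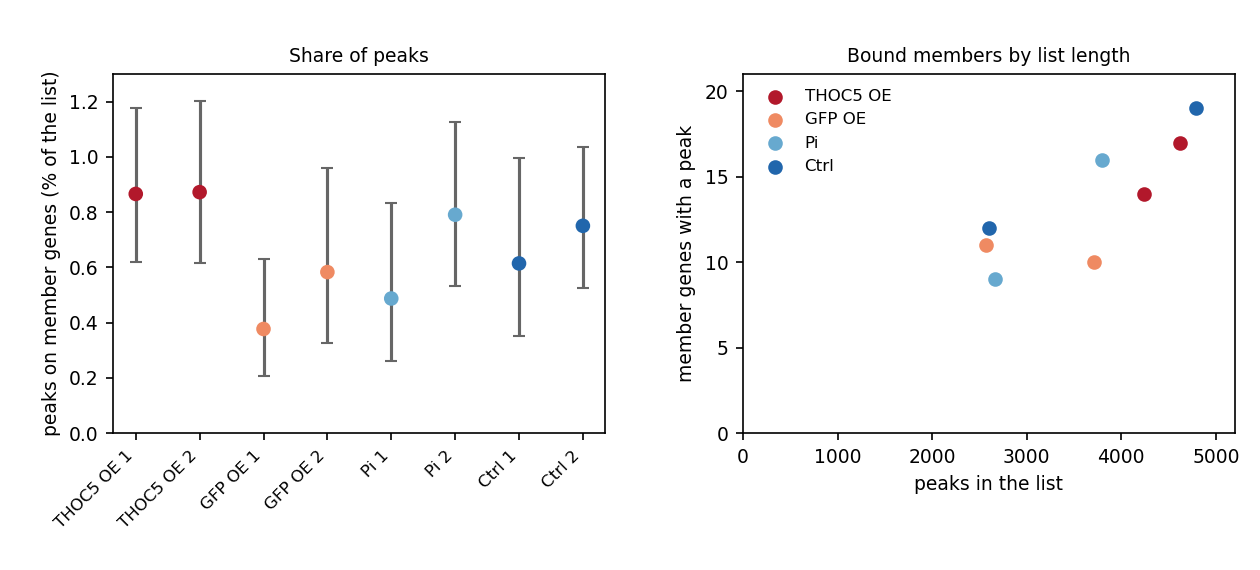
Left, peaks on adhesion and guidance genes as a percent of each list's peaks, with exact binomial 95% intervals, for the 2 lists of each condition. Right, the number of these genes with a peak (y) against the number of peaks in the list (x); the list of 4795 peaks held 19 of the genes, and the 3 shortest lists, of 2572 to 2666 peaks, held 9 to 12.

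Of these genes, the THOC5 OE lists held 17 and 14, GFP OE 10 and 11, Pi 9 and 16, and Ctrl 12 and 19. In each of THOC5 OE, Pi and Ctrl the longer list of the pair held the more. In GFP OE the longer list, with 3711 peaks, held 10 and the shorter, with 2572 peaks, held 11. Of the 30 genes with a peak, 4 were in all 8 lists (background 9.87% of the 4051 genes), 7 were in at least 6 lists (background 20.9%) and 9 were in 1 list (background 37.2%). These shares are near the background.

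**Figure D2:**
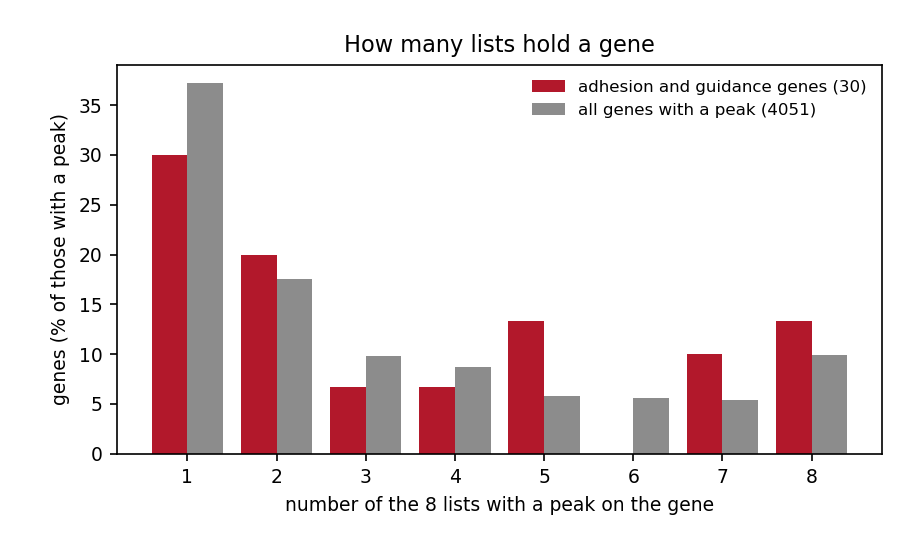
Percent of genes (y) by the number of the 8 lists in which they had a peak (x), for the 30 adhesion and guidance genes with a peak and for all 4051 genes with a peak. In both sets the tallest bar is that of genes in 1 list, and 4 of the 30 stood in all 8.

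The whole set was more often bound than other protein-coding genes, but not among long genes. A peak was found on 36.1% of the 83, against 18.0% of the 21817 other protein-coding genes. The median span was 67009.5 bp for those with a peak and 99020 bp for those without, against 47854 bp and 13108 bp for other genes with and without one. Among genes at or above 89600 bp, the median span of the 83, 14 of 42 had a peak (33.3%), against 41.5% of the others. Among shorter ones the shares were 39.0% (16 of 41) and 14.6%. Spans were not matched within either group, so the difference among shorter genes is not adjusted for span.

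By family, a peak was found on 6 of 11 integrin alpha genes, 3 of 8 integrin beta genes, both talins, vinculin, 3 of 23 cadherins, 5 of 9 plexins, 5 of 20 semaphorins, 2 of 3 slits and 1 of 4 robos, and on Dscam and Mrc2. The other 53 had none in any list. They include Itga7 and Itga8, alpha chains of muscle, Itgb5, a beta chain of vitronectin receptors, the vascular cadherins Cdh5 and Cdh13, Slit1 and Robo2 to Robo4. Of 201 peaks, 121 were intronic (60.2%, against 58.5% of other peaks placed in genes), 49 lay in exons, 19 in 3′ UTRs, 5 in 5′ UTRs and 7 in exons of non-coding transcripts. On 8 of the 30 genes every peak was intronic. They ranked low: 62 of 201 were at percentile 50 or above (30.8%, against 50.7% of other peaks). Tln2 supplied 1 of those 62, and without its peaks the share was 42.4% (61 of 144).

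**Figure D3:**
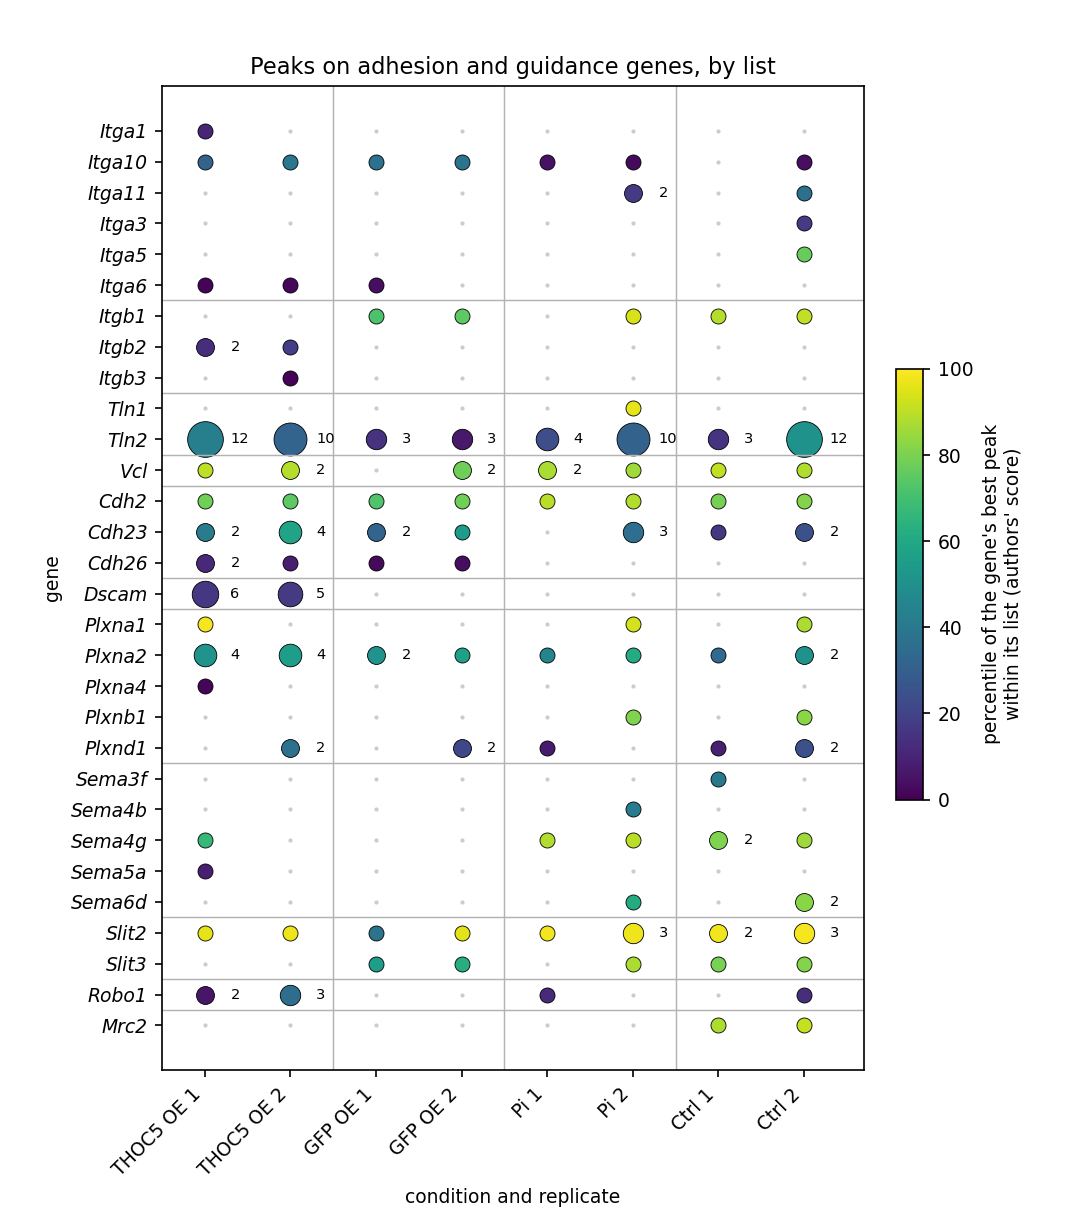
The 30 genes with a peak (rows, by family) in the 8 lists (columns). Circle size and the number beside it give the peaks of the gene in that list, a bare circle is 1 peak, a dot is none, and colour is the percentile of the best peak within its list. Slit2 and Vcl are bright in nearly every column, Tln2 has up to 12 peaks of low rank, and Dscam is filled in the THOC5 OE columns alone.

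Among integrin alpha chains, Itga10, a collagen-binding chain, had 1 peak in 7 of 8 lists, at the end of the gene (chromosome 3, 96662612 to 96663891, exon 30 of 30 and the intron before it). Its percentile was 31.2 and 40.0 in the THOC5 OE lists, 37.5 and 38.2 in GFP OE, and 4.4 and 2.7 in Pi, with none in Ctrl 1 and 3.7 in Ctrl 2. By percentile, all 4 lists of overexpressing cells lay above the 3 others with a peak, but the lists reach down to different scores. The score of each list's peak was 28.9 and 39.9 in the THOC5 OE lists, 37.0 and 42.1 in GFP OE, 28.4 and 19.5 in Pi, and 19.0 in Ctrl 2. THOC5 OE 1 and Pi 1 had nearly equal scores, but their peaks did not overlap. The Pi 1 peak (96662612 to 96663165, in intron 29) lay before that of THOC5 OE 1 (96663344 to 96663817). The Ctrl 2 peak, which overlaps both, joins them into 1 place. The lowest score kept was 6.31 to 12.6 in the lists of overexpressing cells, 20.5 and 14.9 in Pi, and 29 and 15.9 in Ctrl. For its length it was among the most covered of the set, with 37.0 peaks per 100 kb over the 8 lists, against 13.7 for Tln2 and 40.9 for Sema4g.

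The other alpha chains had few, mostly low-ranked peaks. Itga6, a chain of laminin receptors, had a peak in THOC5 OE 1 and 2 and GFP OE 1, at percentiles 0.985, 1.75 and 3.34. Itga11, another collagen-binding chain, had 2 peaks in Pi 2 and 1 in Ctrl 2, in introns 8 and 11 of 29. Single lists held Itga1 (THOC5 OE 1, exon 1), Itga3 (Ctrl 2, intron 4 of 24) and Itga5 (Ctrl 2). The Itga5 peak, in the last exon of the fibronectin receptor chain, was the best ranked of the alpha chains, at percentile 76.7.

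Itgb1, the beta chain that most of these alpha chains pair with, had 1 place in intron 5 of 15 (chromosome 8, 128713404 to 128713942). It was absent from THOC5 OE 1 and 2 and from Pi 1. Its percentile was 71.5 and 75.2 in GFP OE, 94.0 in Pi 2, and 88.7 and 90.3 in Ctrl. The annotation put 4 of its 5 peaks on a B4A repeat, a short interspersed element found at many places in the genome. Itgb2, the beta chain of leukocyte integrins, had 2 peaks in THOC5 OE 1 and 1 in THOC5 OE 2, all intronic, at percentiles 11.1 to 18.3, and none elsewhere. Beside it, 1 of 8 leukocyte markers had a peak, Csf1r at percentile 84.4 in THOC5 OE 2, and the other 7, Ptprc among them, had none; their part in the Itgb2 result was not tested. Itgb3, a beta chain of receptors for vitronectin and fibrinogen, had 1 peak in THOC5 OE 2 at percentile 1.08.

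The pair of talins differed. Tln2 had the most peaks of the set, 57 in 27 places, 47 of them intronic. It had 12 and 10 peaks in the THOC5 OE lists, 3 and 3 in GFP OE, 4 and 10 in Pi, and 3 and 12 in Ctrl. The 4 lists with 10 or more were those of 3793 peaks and above, and the others held 3711 or fewer, so the number went with list length within Pi and within Ctrl. All 57 lay 240 to 413 kb from the 5′ end of a gene of 416961 bp. Of the 27 places, 15 were in 1 list and 2 were in 7, in introns 37 and 17 of 57 (chromosome 9, 67295739 to 67296303 and 67354532 to 67355112). Its median percentile was 18.2, and 1 peak of 57 reached 50. Tln1, the talin found in most tissues, had 1 peak, in exon 6 of 57 in Pi 2, at percentile 96.2.

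Vcl, which encodes vinculin, had well-ranked intronic peaks in 7 of 8 lists. The best was at percentile 90.2 and 88.9 in THOC5 OE, absent in GFP OE 1 and 78.0 in GFP OE 2, 87.3 and 85.7 in Pi, and 90.7 and 88.2 in Ctrl. GFP OE was the low side of these values, with 1 list at 78.0 and 1 without. The shared place lay in intron 3 of 20 (chromosome 14, 20982745 to 20983313) and touched a B1 repeat; 5 of the 10 Vcl peaks were placed on repeats. The condition means were 89.5 ± 0.911 in THOC5 OE, 86.5 ± 1.14 in Pi and 89.4 ± 1.78 in Ctrl (SD, n = 2 each).

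Among cadherins, Cdh2, the N-cadherin of smooth muscle, had exactly 1 peak in each of the 8 lists. All 8 were at the same place in intron 8 of 15 and off any annotated repeat. The percentile was 78.2 and 75.4 in the THOC5 OE lists, 72.5 and 78.1 in GFP OE, 89.7 and 88.5 in Pi, and 79.1 and 81.6 in Ctrl. Both Pi lists ranked it above the other 6, which lay between 72.5 and 81.6. Pi averaged 89.1 ± 0.879 and Ctrl 80.4 ± 1.79 (SD, n = 2 each), a difference for which the exact test of 2 lists against 2 cannot go below 0.333.

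Cdh23, a cadherin known for the tip links of hair cells, had 15 peaks in 6 places. It had 2 and 4 peaks in the THOC5 OE lists, 2 and 1 in GFP OE, 0 and 3 in Pi, and 1 and 2 in Ctrl. Some of these places also overlap Vsir, a gene lying within the span of Cdh23, and with no strand in the lists the 2 cannot be told apart there. Cdh26 had 2 and 1 peaks in THOC5 OE and 1 and 1 in GFP OE, and none in the 4 other lists, with its best percentile between 2.4 and 11.1. These peaks stood in 3 places, none of them shared by a THOC5 OE list and both GFP OE lists, and 2 of the 5 were placed on a B4 repeat.

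Dscam encodes an immunoglobulin-family adhesion protein best known from neurons, and here it was listed in THOC5 OE alone, with 6 and 5 peaks. Of its 6 places 5 were common to both lists. They lay in and around exons 2, 5, 6 and 8 of 33 and in intron 3 (chromosome 16, between 96819365 and 97056845). All were weak: the percentiles ran from 0.531 to 15.7 in THOC5 OE 1 and from 0.307 to 17.5 in THOC5 OE 2. The scores ran from 7.89 to 16.7 in THOC5 OE 1 and from 8.03 to 18.4 in THOC5 OE 2. Of these peaks, 4 of 6 and 4 of 5 scored below the lowest score that GFP OE 1 lists, and 5 of 6 and 4 of 5 below the lowest of GFP OE 2. Whether scores are on 1 scale across lists is not known. With every list reduced to its best 2572 peaks, the length of the shortest, Dscam had no peak in any list. None of the 8 neuron markers had a peak.

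Slit2 carried the best-ranked repeated peak of the set. Its best percentile was 95.9 and 97.4 in the THOC5 OE lists, 38.1 and 95.6 in GFP OE, 98.3 and 97.6 in Pi, and 97.8 and 98.6 in Ctrl. GFP OE 1 was the exception. In the other 7 lists the peak lay in exon 1 of 36 of a non-coding Slit2 transcript, 2.42 to 3.41 kb from the 5′ end of the gene. These 7 made 2 neighbouring places (chromosome 5, 47983473 to 47984227 for THOC5 OE 1 and GFP OE 2, and 47984419 to 47984978 for THOC5 OE 2, Pi and Ctrl). Slit3 had 1 place in intron 22 of 35 (chromosome 11, 35651195 to 35651724), with all 5 peaks on a Tigger19a DNA repeat and over the predicted gene Gm46278. It was absent from both THOC5 OE lists and Pi 1. The percentile was 55.4 and 62.2 in GFP OE, 87.1 in Pi 2, and 79.5 and 81.3 in Ctrl.

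Robo1, a receptor of slits, had 2 and 3 peaks in THOC5 OE, none in GFP OE, 1 and 0 in Pi, and 0 and 1 in Ctrl. They were scattered over 6 places, and 1 of these, in intron 13 of 28, was shared by the THOC5 OE lists, at percentiles 5.7 and 3.6. The gene spans 1019974 bp, and its peaks came to 0.686 per 100 kb.

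**Figure D4:**
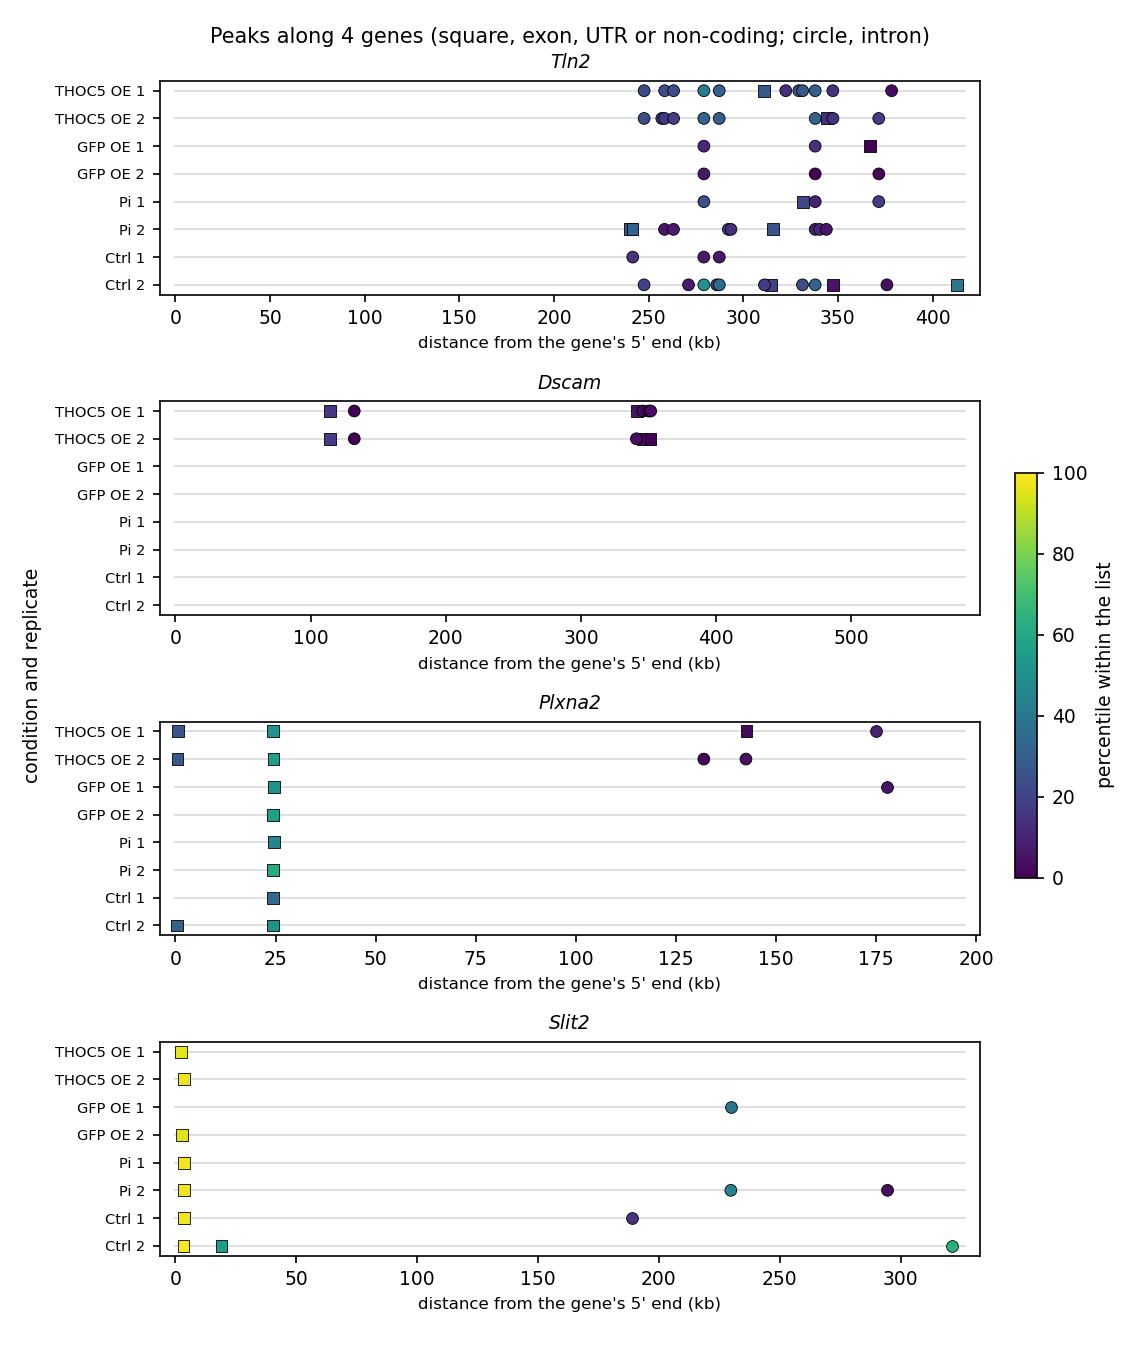
Peaks of each list (rows) along Tln2, Dscam, Plxna2 and Slit2, as distance in kb from the gene's 5′ end (x); squares are exonic, UTR or non-coding peaks, circles are intronic, and colour is the percentile within the list. Tln2 peaks are confined to the part beyond 240 kb, Dscam rows are filled in THOC5 OE alone, all 8 lists share the Plxna2 peak in exon 2, and 7 lists have a Slit2 peak near the 5′ end.

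Among plexins, Plxna2, a receptor for class 3 and class 6 semaphorins, was in every list. It had 4 and 4 peaks in the THOC5 OE lists, 2 and 1 in GFP OE, 1 and 1 in Pi, and 1 and 2 in Ctrl. The place common to all 8 was exon 2 of 32 (chromosome 1, 194643912 to 194644628). Its percentile was 51.2 and 55.4 in the THOC5 OE lists, 51.3 and 57.2 in GFP OE, 45.5 and 61.2 in Pi, and 34.3 and 50.4 in Ctrl. The Pi range overlapped all others, and Ctrl lay just below THOC5 OE and GFP OE. A place in exon 1 was shared by both THOC5 OE lists, at 26.3 and 27.1, and Ctrl 2, at 31.0. The further THOC5 OE peaks, from intron 7 on, had percentiles from 1.1 to 9.7. They scored 8.6 to 13.1, and the lowest score listed in any Pi or Ctrl list was 14.9. Plxna1 had the best-ranked plexin peak, in exon 2 of 32 in THOC5 OE 1 at percentile 98.4, and a different place around exon 6 in Pi 2 and Ctrl 2, at 93.0 and 87.9. Plxnd1, the receptor of vessel patterning, had 2 peaks each in THOC5 OE 2, GFP OE 2 and Ctrl 2 and 1 each in Pi 1 and Ctrl 1, at percentiles of 37.8 and lower. Plxnb1 had its last exon listed in Pi 2 and Ctrl 2, at 80.5 and 82.7. Plxna4 had 1 peak, in THOC5 OE 1.

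Among semaphorins, Sema4g, a transmembrane ligand, was in 5 lists. Its best percentile was 66.8 in THOC5 OE 1, with none in THOC5 OE 2 and GFP OE, against 88.0 and 89.5 in Pi and 80.5 and 85.2 in Ctrl. All 4 lists of cells without an overexpressed gene shared its last exon, 15 of 15 (chromosome 19, 45001794 to 45002580), and the THOC5 OE 1 peak lay elsewhere, in exon 2. Sema6d was in Pi 2 and Ctrl 2, at 3 places. Sema3f (Ctrl 1), Sema4b (Pi 2) and Sema5a (THOC5 OE 1) had 1 peak each, at percentiles 40.5, 41.5 and 9.0.

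First exons held 15 of the 201 peaks (7.46%, against 2.63% of other peaks in genes). Of these, 7 were those of Slit2 and the rest came from Plxna2, Plxnd1, Robo1 and Itga1, so the share rests on few genes whose place recurs. Last exons held 20 (9.95%, against 10.7%).

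**Figure D5:**
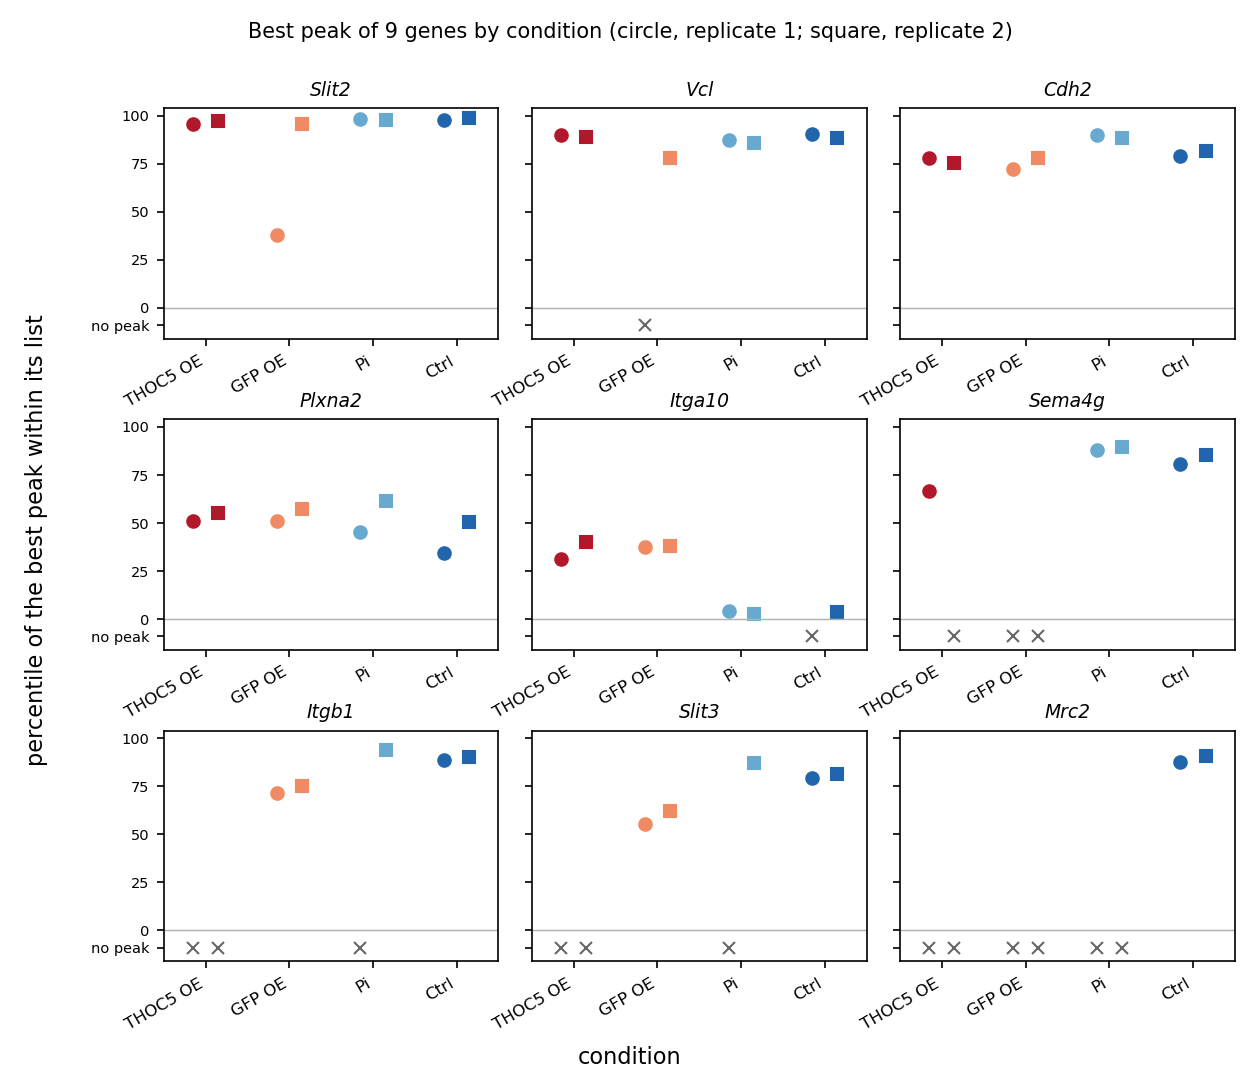
Percentile of the best peak within its list (y) for 9 genes in THOC5 OE, GFP OE, Pi and Ctrl (x); circles are replicate 1, squares replicate 2, and a cross is a list without a peak. Itga10 sits at 31.2 to 40.0 in THOC5 OE and GFP OE and at 4.4 or lower in Pi and Ctrl, and Sema4g shows the opposite order.

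Osteogenic against growth medium, Pi against Ctrl, separated almost none of these genes. Of the 22 with a peak in these 4 lists, 0 were in the Pi pair and absent from the Ctrl pair (background 3.25% of 3384 genes), and 1 was in the Ctrl pair and absent from the Pi pair (background 3.63%). That gene was Mrc2, an endocytic receptor for collagen. Its peak, in exon 4 of 30 (chromosome 11, 105328155 to 105328616), was at percentile 87.8 and 91.0 in Ctrl and absent from the 6 other lists. By the nearest-gene column, which adds peaks outside the gene, Mrc2 was in 5 lists, both of Pi among them. By place, 0 of 60 were in both Pi lists alone of the 4 (background 2.59%) and 2 were in both Ctrl lists alone (background 4.67%), those of Mrc2 and of 1 Tln2 place. These counts are at or near the background.

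GFP OE against Pi, which differ by the overexpression of GFP, gave 1 gene on each side of 20. Cdh26 was in the GFP OE pair and absent from Pi (background 3.65% of 3065 genes). Its GFP OE peaks scored 11.6 and 15.1, and the lowest scores listed in Pi were 20.5 and 14.9. Sema4g was in the Pi pair and absent from GFP OE (background 6.49%). By place, 0 of 45 were in the GFP OE pair and absent from Pi (background 5.13%), and 2 were in the Pi pair and absent from GFP OE (background 3.93%), in Sema4g and Slit2. For Slit2 the absence is of the place alone. GFP OE 2 had a peak at the neighbouring place in the same exon, at percentile 95.6, and GFP OE 1 one in an intron.

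THOC5 OE against GFP OE separated the most places. Of 21 genes, 3 were in the THOC5 OE pair and absent from GFP OE: Dscam, Itgb2 and Robo1 (background 6.34% of 2509 genes). Of 63 places, 17 were in the THOC5 OE pair and absent from GFP OE (27.0%, background 8.21% of 7901 places). They were 5 places of Dscam, 5 of Tln2, 2 of Plxna2 and 1 each of Cdh23, Cdh26, Itga6, Itgb2 and Robo1. Of these 17, 11 were in no other list (background 2.70% of 12362 places), the 5 of Dscam among them, and 6 were also in a Pi or Ctrl list. All 17 were low in the THOC5 OE lists, at percentiles 0.307 to 31.6. With every list reduced to its best 2572 peaks, 0 of 21 such places were left, against 5.39% of all places. At a lowest score of 29 in every list, an alternative added after the data were seen, 2 of 22 places met the rule (background 8.05%). Among them was a Tln2 place in intron 17 of 57 that the full GFP OE lists hold at lower scores. With 1 THOC5 OE list alone to satisfy the rule, the counts were 27 of 49 without THOC5 OE 1 (background 25.8%) and 31 of 53 without THOC5 OE 2 (background 27.7%). The opposite call, the GFP OE pair without THOC5 OE, took in Itgb1 and Slit3 (background 1.20%), by gene and by place (2 of 63, background 1.39%). Without peaks placed on repeats the count was 0: the Slit3 peaks of both GFP OE lists and the Itgb1 peak of GFP OE 1 were placed on repeats, and the Itgb1 peak of GFP OE 2, at the same place, was not.

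THOC5 OE and GFP OE together were set against Pi and Ctrl together. Growth medium is on one side alone here, so overexpression and medium are partly mixed. At least 3 of the 4 lists of overexpressing cells and no other list held 2 of the 30 genes, Cdh26 and Itga6 (background 2.62%), and 0 of 97 places (background 3.63%). The opposite call held 0 genes (background 2.76%) and 1 place, the last exon of Sema4g (background 1.78%). In a two-sided exact permutation test of each gene's share of peaks over all 4051 genes, with Benjamini-Hochberg adjustment, 0 genes reached an adjusted p of 0.05 and 193 had an unadjusted p below it (3.33% higher and 1.43% lower with overexpression). The smallest p that the 70 arrangements allow is 0.0286. From that p, an adjusted p of 0.05 can be reached only if most of the 4051 genes have it. The 0 adjusted calls thus follow from the design and say nothing about single genes. Cdh26 reached the smallest p, with an adjusted p of 0.600 in the exact permutation test. Its share averaged 0.0332% of peaks with overexpression and 0% without, and it was present in 4 of 4 against 0 of 4 lists. The Cdh26 peaks scored 11.6 to 15.1 and those of Itga6 8.18 to 12.1. The lowest scores listed were 20.5 and 14.9 in Pi, and 29 and 15.9 in Ctrl. At a common lowest score of 29, neither gene had a peak in any list. Plxna2 (0.0684% against 0.0360%), Sema4g (0.00541% against 0.0404%) and Slit2 (0.0278% against 0.0640%) each had an exact permutation p of 0.0571, adjusted 0.845. At the common lowest score, Plxna2 had 1 peak in each list but Ctrl 2, which had 2, so its excess with overexpression was gone. Sema4g then had 1 peak in THOC5 OE 1 and 1 or 2 in each Pi and Ctrl list. Slit2 had 1 in each list of overexpressing cells and 1 to 3 in the others. None of the differences in share passed the test, which with this smallest p could not have called a few genes alone.

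Listed in 1 condition alone, in both of its lists, were 2 of the 30 genes for THOC5 OE, Dscam and Itgb2 (background 1.63%), 0 for GFP OE (background 0.148%), 0 for Pi (background 1.36%) and 1 for Ctrl, Mrc2 (background 1.48%). By place the counts were 11 of 97 for THOC5 OE, given above, 0 for GFP OE (background 0.388%), 0 for Pi (background 0.768%) and 1 for Ctrl (background 1.33%). This rule was added after the data were seen.

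Partners of these proteins, from 3 lists of genes, had peaks as follows, beside the 18.0% of other protein-coding genes with a peak and the 9.87% of genes with a peak that were in all 8 lists. The 3 lists were not split by gene span. Of 42 focal adhesion genes, 18 had a peak (42.9%) and 4 were in all 8 lists. Among these were Tns3 (best percentile 76.6 to 98.8 over the lists) and Tns1 (55.7 to 95.3), tensins that bind integrin tails, and Dock1 (74.1 to 89.8), an activator of Rac with 5 to 14 peaks a list. Actn1, an actinin of stress fibres, had peaks in Pi 2 and both Ctrl lists alone (background 2.76%), at percentiles 92.0 to 95.7. Ptk2, the focal adhesion kinase, was in the Pi pair and absent from GFP OE (background 6.49%). Kank2, a talin-binding protein, was in the THOC5 OE pair and absent from GFP OE (background 6.34%). Rapgef1, an exchange factor of Rap1, was in every list but those of Pi (background 3.63% for the Ctrl pair without Pi and 3.65% for the GFP OE pair without Pi).

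Of 45 guidance signalling genes, 20 had a peak (44.4%) and 2 were in all 8 lists. Mical3, of the family of actin-oxidising enzymes downstream of plexins, had percentiles of 86.1 to 94.4, and Met, the receptor of hepatocyte growth factor, had 1.3 to 85.2. Epha3, an ephrin receptor, was in both THOC5 OE lists and GFP OE 1 alone (background 2.62%). Arhgef12, an exchange factor that binds plexin B, was in both Pi lists and Ctrl 2 alone (background 2.76%). Epha4 was in the THOC5 OE pair and absent from GFP OE (background 6.34%), and Epha2 and Srgap3, a partner of robo, were in both Ctrl lists alone (background 1.48%).

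Of 26 cadherin partners, 17 had a peak (65.4%) and 4 were in all 8 lists: Afdn, the afadin of adherens junctions (87.7 to 97.7), Shroom2 (57.2 to 83.0), Tjp1 (52.0 to 68.5) and Plekha7 (36.8 to 61.2). Shroom3 was in the Pi pair and absent from GFP OE (background 6.49%). Pkp2, a plakophilin, was in both THOC5 OE lists and GFP OE 2 alone (background 2.62%), at percentiles of 20.0 and lower.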

How the data were processed

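Each of the 8 THOC5 immunoprecipitates had 1 deposited peak list, annotated to mm10. Per the submitters' processing notes, FastQC, Bowtie2, MACS2 and SAMtools were used; order and settings are not given in these sources. The score column holds the authors' peak score, deposited with no scale; depth is unknown. All peaks are written as plus strand, and strand was ignored. Lists were joined to samples by the condition's abbreviation and replicate number. A peak's gene is the RefSeq transcript in parentheses of the deposited annotation, matched to a symbol in the table of GRCm38.p6 (4998 of 5008 transcripts; 28000 of 28032 peaks placed in genes).

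A gene is bound in a list with 1 peak or more. A place is a run of peaks of all lists overlapping by at least 1 base. Percentiles are ranks within a list. Counts over genes and places are given with the same count over the whole series, and each gene's percent of a list's peaks was tested over 8 lists by two-sided exact permutation (70 arrangements), Benjamini-Hochberg adjusted over 4051 genes at 0.05. No p is given for a sum over the genes. The code was tested on simulated data. Python 3.11.15, pandas 2.3.3, numpy 2.4.6, scipy 1.17.1 and matplotlib 3.10.9 were used.

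Genes, lists of partners and rules were chosen with earlier results of these data known. Named are genes in 6 lists or more, those any count sets apart, Thoc5, and each remaining bound gene with its lists. Of partners, those in all 8 lists or set apart are named, except some that are not reported here.

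Whether replicate numbers pair the samples is not known. Deviations of same-numbered lists from their condition means correlated at -0.151 to 0.0715 between conditions, which does not settle it.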

Additional observations from a re-analysis of the deposited data

How the results depend on the processing

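The counts were repeated with 9 other settings and with each list left out. With each list's peaks at or above its median score, 1 gene was in all 8 lists (Cdh2), 0 were in GFP OE and not Pi, 0 in THOC5 OE and not GFP OE, and 0 in at least 3 overexpression lists alone. The share of peaks was 0.435%, 1 place was in all 8 lists, and 0 places were in THOC5 OE and not GFP OE. With lists of equal length, these same 3 gene counts were 0, 0 and 0, the share 0.467%, 1 place was in at least 3 overexpression lists alone, and 0 were in THOC5 OE and not GFP OE. By the nearest gene, 2 genes were in all 8 lists, 1 was in GFP OE and not THOC5 OE, 1 in overexpression lists alone, the share was 0.361%, 0 places were in lists without overexpression alone, and 10 in THOC5 OE and not GFP OE. By that assignment Tln2 and Slit3 had no peak and Mrc2 was in 5 lists. With exons and UTRs only, 1 gene was in all 8 lists (Plxna2), 0 were in GFP OE and not Pi, 0 in GFP OE and not THOC5 OE, 0 in overexpression lists alone, the share was 0.268%, 1 place was in all 8 lists, and 8 were in THOC5 OE and not GFP OE. At a common lowest score, added after the data were seen, 2 genes were in Pi and not GFP OE (Sema4g and Tln2). In THOC5 OE and not GFP OE there was 1 gene, Tln2, and in overexpression lists alone 1, Itga10. Neither was among the genes these 2 rules named in the full lists: Dscam, Itgb2, Cdh26 and Itga6 had no peak at this score. The share was 0.485%, 1 place was in overexpression lists alone, and 2 were in THOC5 OE and not GFP OE. Without repeats, also added then, 0 genes were in GFP OE and not THOC5 OE. Other overlap and undivided counts moved nothing. The causes were not tested.

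Leaving out 1 list gave these ranges: genes in all lists 4 to 5, Pi and not Ctrl 0 to 2, Ctrl and not Pi 1 to 4, GFP OE and not Pi 1 to 4, Pi and not GFP OE 1 to 7, THOC5 OE and not GFP OE 3 to 8, GFP OE and not THOC5 OE 2 to 2, overexpression alone 1 to 2, no overexpression alone 0 to 1, adjusted calls 0 to 0, share 0.639% to 0.709%, places in all lists 2 to 4, in overexpression lists alone 0 to 0, in lists without it alone 1 to 2, and in THOC5 OE and not GFP OE 17 to 31. The 0 adjusted calls follow from the smallest p allowed, as given above. A condition with 1 list left is easier to set apart, by construction. The genes in Pi and not GFP OE were 7 without Pi 1 and 2 without Pi 2 or GFP OE 2, and those in GFP OE and not Pi were 4 without Pi 2 and 2 without GFP OE 2. Those in Pi and not Ctrl were 2 without Pi 1 and 1 without Ctrl 2, and those in Ctrl and not Pi were 4 without Pi 2, 3 without Ctrl 1 and 2 without Pi 1 or Ctrl 2. Those in THOC5 OE and not GFP OE were 8 without THOC5 OE 2, and the places 31 without THOC5 OE 2 and 27 without THOC5 OE 1. The genes in overexpression lists alone were 1 without THOC5 OE 1, THOC5 OE 2 or GFP OE 1. In lists without overexpression alone there was 1 gene without THOC5 OE 1 and there were 2 places without THOC5 OE 2. The places in all lists were 4 without Ctrl 1.

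With the replicate number as a block (36 arrangements), the smallest two-sided p allowed is 0.0556, so the 0 genes at an unadjusted p under 0.05, against 193 without the block (1 of the set, Cdh26), follow from the design. The count at an adjusted p under 0.05 was 0 in both, and the smallest adjusted p without the block was 0.600, so the block says nothing about stability. List length and score reach limit all calls of absence.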

Other observations

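Of the 17 places in the THOC5 OE pair and absent from GFP OE, 9 were intronic in every list that held them. The same was not counted over all 649 such places of the series. Of the 9 genes of the set in 1 list, 6 were in THOC5 OE 1, THOC5 OE 2 or Ctrl 2. These lists hold 4618, 4240 and 4795 of the 28998 peaks. The same share over all 1507 genes in 1 list was not counted, so the 6 of 9 cannot be set against a background. Other microRNA hosts of the set had at most 1 peak: Itga5 hosts Mir6963, 5387 bp from its peak, and Plxnb2, Robo2 and Sema4a had none.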
